A study of Mus musculus with 10 samples.

Results

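The tumour necrosis factor (TNF) superfamily was examined in luminal and basal cells of the mouse mammary gland. Its members were taken by a rule on gene names, which uses no measured value: every symbol of the Tnfsf and Tnfrsf series, together with Tnf, Lta, Ltb, Ltbr, Fas, Fasl, Cd40, Cd40lg, Cd27, Cd70, Eda, Edar, Eda2r and Ngfr. The rule found 45 genes, 18 ligands and 27 receptors, among 24594 genes counted. The data are bulk RNA-seq of wild-type C57BL/6J mice that carried no other allele and received no treatment named in the labels, which also give no age. Mammary tissue was dissociated with enzymes, and the cells were sorted by flow cytometry on EpCAM and CD49f, surface proteins whose levels separate the inner (luminal) from the outer (basal) layer of the ducts. The methods of the study add lineage antibodies to TER-119, CD31 and CD45, which mark red blood cells, endothelium and leukocytes, and each sort still pools every luminal or every basal subtype. There were 10 libraries, 5 per cell type. Groups follow the cell type label, although the title of every library names the other cell type. In what follows, a gene called luminal or basal is one that was higher in those cells.

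TNF superfamily ligands are made as membrane proteins, often cut off to act at a distance, and they bind receptors of a matching family as trimers. Receptors with a cytoplasmic death domain, such as Fas and TNFR1, can start cell death, and most of the others recruit TRAF adaptors and switch on NF-kB. In the mammary gland the family is best known for RANKL (Tnfsf11), which luminal cells that carry the progesterone receptor make in response to the hormone, and for its receptor RANK (Tnfrsf11a), which relays the signal to neighbouring cells. Ectodysplasin and its receptor Edar, another pair, act in the growth of skin appendages, the mammary bud among them.

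Library totals ran from 13203146 to 17565471 counts in luminal and from 13676558 to 17998165 in basal libraries, so that 3 counts, taken here as the lowest level told from 0, correspond to between 0.158 and 0.232 CPM, the unit used here for counts scaled to the library total. All 8 luminal markers were higher in the luminal group and all 6 basal markers in the basal group (edgeR), which matches the cell type label and not the titles. The basal markers summed to 25.6 to 77.5 CPM in luminal libraries and to 9948 to 14144 in basal ones. Because many TNF superfamily genes are made by immune cells, markers of cells that a sort can carry over were read too. The 6 markers of T and NK cells summed to at most 0.0599 CPM in any library, with 5 of them at 0 everywhere, and 4 B cell markers to at most 0.687. The 8 myeloid markers summed to 17.4 to 24.6 CPM in luminal and 36.6 to 54.1 in basal libraries, of which Csf1r and Cd68 made up 81.7% to 90.7% and 96.1% to 98.5%, while the pan-leukocyte gene Ptprc stayed between 0 and 0.381. Pericyte markers, of which there were 3, summed to 0 to 1.90 CPM in luminal and 29.3 to 39.3 in basal libraries, and 5 endothelial markers to 1.69 to 4.06 and 6.56 to 14.4. Fibroblast markers (5) summed to 17.8 to 108 CPM and 23.9 to 36.9, Schwann cell markers (3) to 2.75 to 8.78 and 2.70 to 4.80, and adipocyte markers (3) to at most 1.06. Of the fibroblast markers, Dcn was luminal and reached 95.1 CPM in luminal replicate 1. Pdgfra was basal (means of 5.82 CPM in luminal and 12.4 in basal cells), and Dpt, Lum and Col1a1 did not pass the test. The part these other cells play in any value given here was not tested. All 10 immediate early genes on a list of transcripts that rise on tissue dissociation were higher in basal cells (100%, against 31.2% of all genes tested). They summed to 4588 to 7440 CPM there and to 2384 to 3166 in luminal cells. This list was drawn up with earlier results of these data known, so its count is a description. In bulk RNA, fewer cells of a type and less RNA per cell cannot be told apart.

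Of the 45 members, 29 had enough counts to be tested, 9 ligands and 20 receptors. Of these, 19 differed between the cell types at an adjusted p under 0.05 (edgeR quasi-likelihood test), 10 of them higher in luminal cells and 9 in basal cells. That is 65.5% of the members tested, against 64.8% of all genes tested, and the directions were near the background too: 34.5% against 33.6% for luminal cells and 31.0% against 31.2% for basal cells. The share called was thus near that of all genes, and the results below concern single members. Of the 9 ligands tested, 5 were higher in luminal cells and 1 in basal cells. Of the 20 receptors, 5 were higher in luminal cells and 8 were higher in basal ones. The difference between ligands and receptors was not tested, and the count of ligands depended on the filter: with no filter, 5 were luminal and 4 basal. The median log2 fold change (luminal over basal) was 0.24 over the 29 members and 0.05 over all 14609 genes tested. Libraries of the cell types did not overlap for 17 of the 29 members, against 50.1% of all genes. Among the 29, 6 reached the filter's minimum level (0.651 CPM) in all 5 libraries of one cell type and in at most 1 of the other, and so passed only through the first: Lta, Ltb, Tnfsf11 and Tnf through luminal cells and Ngfr and Edar through basal cells. Genes that pass in this way had to be higher on that side, so their directions and p-values are conditional on the filter, and the counts above are no support for a lean of the family. With no filter these 6 kept their direction and an adjusted p under 0.05. Another 4 (Eda2r, Tnfrsf9, Tnfrsf11b and Tnfrsf25) reached the minimum in all 5 libraries of one cell type and in 3 or 4 of the other.

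**Figure D1:**
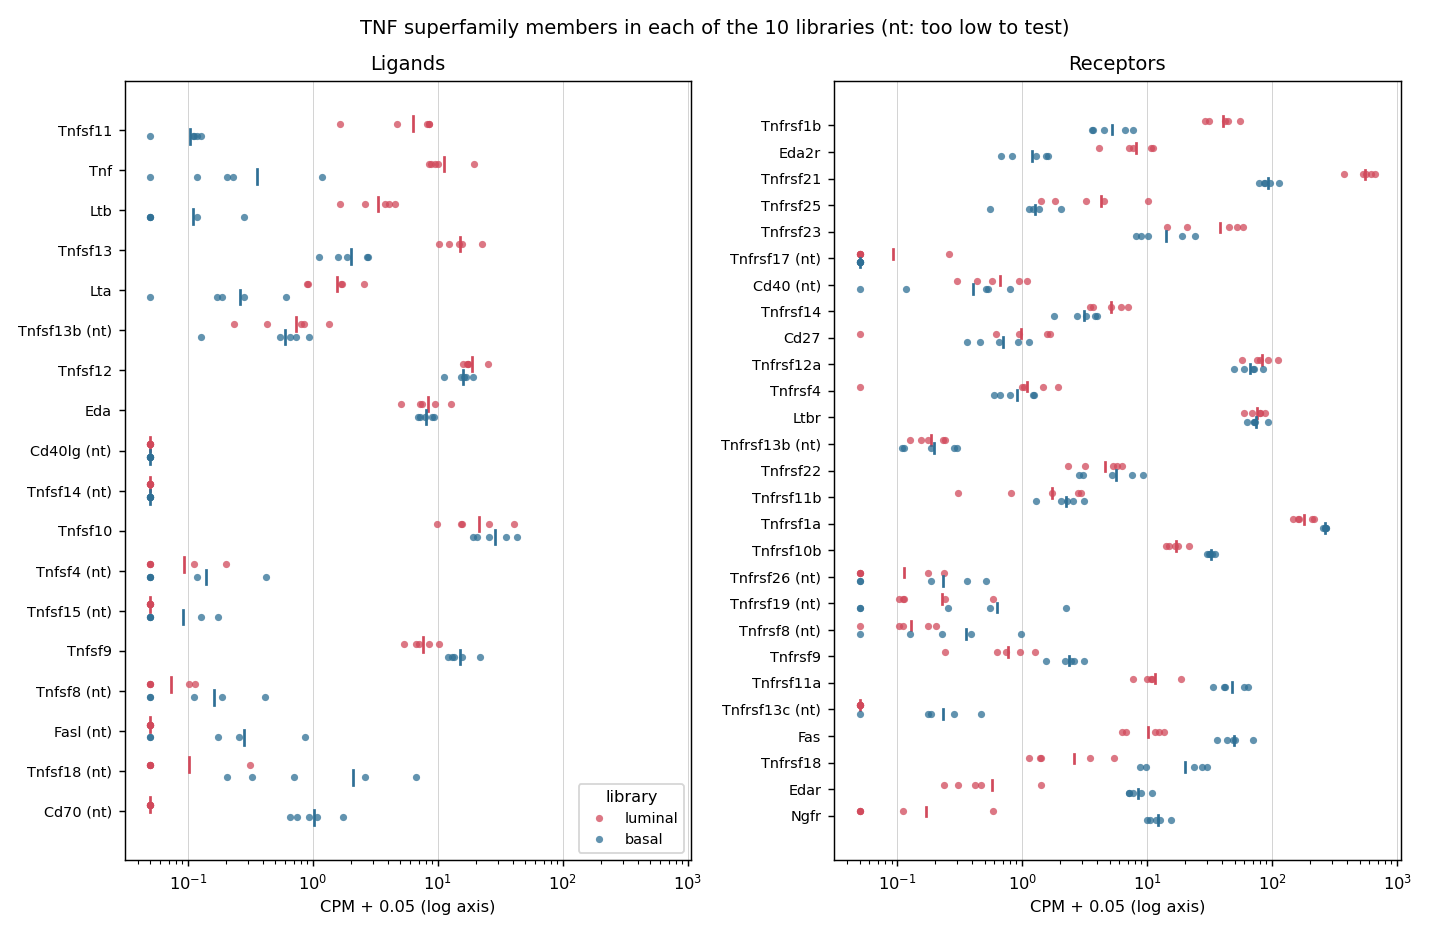
Each point is 1 library (red luminal, blue basal; n = 5 each), short bars are group means, and the horizontal axis is CPM + 0.05 on a log scale; members marked nt had too few counts to test. RANKL (Tnfsf11), Tnf and Ltb are higher in every luminal library than in any basal library of the same gene, whereas Ngfr and Edar show the opposite order and Tnfrsf1a lies between 148 and 269 CPM in all 10.

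Among the ligands, those of the TNF and lymphotoxin genes, which sit side by side in 11072 bases of chromosome 17 (GRCm38), were all luminal. Tnf (chr17:35199367-35202007, minus strand), the cytokine that names the family, was at 8.76, 8.43, 9.45, 19.2 and 9.96 CPM in luminal libraries 1 to 5 and at 0, 0.0682, 0.155, 1.13 and 0.18 in basal libraries 1 to 5. The groups did not overlap, and replicate 4 was the highest library of both cell types. Tnf had a log2 fold change of 5.13 (SE 0.64, adjusted p = 7.60e-06), and 6.68 without basal replicate 4. Ltb (chr17:35194507-35196305, plus strand), the membrane-bound subunit of lymphotoxin, averaged 3.27 ± 1.18 CPM (SD, n = 5) in luminal cells, and its 5 basal libraries held 4 counts in all against 255. The ratio of the pooled levels was 60.7, with an exact 95% binomial interval of 23.4 to 224 that covers counting error only (adjusted p = 1.00e-05), and 3 of the 4 basal counts came from basal replicate 3. The fitted log2 fold change of Ltb was 5.73 (SE 0.74), and 7.11 without that library. Lta (chr17:35203165-35205578, minus strand), the secreted subunit, ran from 0.843 to 2.52 CPM in luminal libraries and from 0 to 0.561 in basal ones, with a log2 fold change of 2.78 (SE 0.67, adjusted p = 0.00214), and of 3.56 without basal replicate 1. These are low levels for Lta and Ltb, at 14 to 73 counts per luminal library. T, NK and B cells are the usual source of lymphotoxin. In the same luminal libraries the T and NK cell markers were at 0 and the B cell markers summed to 0.0625 to 0.687 CPM, highest in replicate 4, where Tnf and Lta were highest too. Of the myeloid markers, Lyz2 was higher in luminal cells (1.31 against 0.395 CPM, adjusted p = 0.0139), and Csf1r and Cd68 in basal cells. The part of such cells in these values was not tested.

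Because the 3 neighbours were higher in the same cells, the DNA just upstream of each was searched on both strands for the NF-kB consensus and for the STAT motif TTCNNNGAA in RefSeq promoter windows of 300 bases (250 before the start site and 50 after, GRCm38.p6). Ltb held 1 NF-kB match, 87 to 78 bases before its start, and 1 STAT match, Lta held 2 STAT matches, and Tnf held neither motif in this window. The 30 bases around each match are shown because the STAT motif is common to Ltb and Lta while the NF-kB match is found in Ltb alone of the 3, and capitals mark the match.
Ltb NF-kB, chr17:35194410-35194439, plus strand: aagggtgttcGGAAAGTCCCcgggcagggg
Ltb STAT, chr17:35194324-35194353, plus strand: tccttccccagTTCAGAGAAcccaggcatc
Lta STAT upstream, chr17:35205485-35205514, minus strand: aaccatcactcTTCAGGGAAccaggcttcc
Lta STAT near the start, chr17:35205352-35205381, minus strand: ggacccgactccctTTCCCAGAAcgcagta
The start that the table gives for Lta lies inside the full extent of the gene. Windows were found for 35 of the 45 members, 39 windows in all. An NF-kB match was present in 4 of the 39 (10.3%), against 8.46% of 32851 promoters in the table: those of Ltb, Tnfrsf8, Tnfrsf9 and Tnfrsf25. The STAT motif was in 9 windows (23.1%, against 8.30%), those of Ltb, Lta, Fas, Tnfrsf1a, Tnfrsf1b, Tnfrsf9, Tnfrsf18, Tnfrsf19 and Tnfrsf25. Of these 9 genes, some were higher in luminal cells (Ltb, Lta, Tnfrsf1b, Tnfrsf25), others in basal cells (Fas, Tnfrsf1a, Tnfrsf9, Tnfrsf18), and Tnfrsf19 was not tested. The AP-1 motif TGANTCA was in 7 windows of 6 genes (17.9%, against 7.81%), and the GATA motif AGATAA in the window of Tnfsf13b alone (2.56%, against 11.2%). A match is a run of letters and not a measured site.

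RANKL was read almost wholly in luminal cells. Tnfsf11 (chr14:78277446-78308043, minus strand) was at 8.51, 1.58, 4.66, 8.4 and 8.06 CPM in luminal libraries 1 to 5 and at 0.0624, 0.0682, 0.0774, 0 and 0.0599 in the basal ones, no more than 1 count in any of them. No basal library came near a luminal one, and luminal replicate 2 was the lowest of its group. Tnfsf11 had a log2 fold change of 6.69 (SE 0.65, adjusted p = 5.57e-07), and the ratio of pooled levels was 114 (exact 95% interval 44.2 to 420, which covers counting error only and not the spread between libraries). Its receptor lay the other way. Tnfrsf11a, RANK (chr1:105780673-105849444, plus strand), was at 18.7, 10.7, 10.8, 7.71 and 9.96 CPM in luminal and 41.8, 64, 59, 33.6 and 41.3 CPM in basal libraries 1 to 5. Every basal library was above every luminal one, and luminal replicate 1 stood above the rest of its group. The fitted log2 difference of RANK was -2.05 (SE 0.25, adjusted p = 5.13e-06), which is a 4.13-fold higher level in basal cells, and RANK was present in both. Tnfrsf11b (chr15:54250619-54278484, minus strand) encodes osteoprotegerin (OPG), a secreted decoy that binds RANKL, and it was low in both cell types. Its libraries were at 2.88, 1.69, 2.76, 0.764 and 0.254 CPM in luminal and 2.49, 3.07, 1.24, 2.0 and 2.22 CPM in basal cells, overlapping, with a log2 fold change of -0.40 (SE 0.53, adjusted p = 0.529). Per kilobase of transcript (mean GENCODE M21 length), mean levels in luminal cells were 2.79 for RANKL, 5.2 for RANK and 0.592 for OPG, and in basal cells 0.0240, 21.5 and 0.782.

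Of 13 genes listed for the RANKL axis and its cells in the gland, 12 were higher in luminal cells (92.3%, against 33.6% of all genes) and Lgr4 in basal cells. The list was drawn up with earlier results of these data known and holds 4 of the luminal markers that were read above to check the sort, Esr1, Prlr, Elf5 and Kit, so that its count is a description and supports nothing about RANKL. Of the other 9 genes, 8 were luminal. The hormone receptor genes upstream of RANKL were luminal. Pgr, the progesterone receptor, averaged 325 ± 200 CPM in luminal and 7.61 ± 1.3 in basal cells (log2 fold change 5.42, SE 0.44, adjusted p = 9.59e-08). Its luminal libraries 1 to 5 were at 611, 86, 248, 253 and 426 CPM, so that replicate 2 was the lowest library for Pgr as well as for RANKL. The prolactin receptor Prlr (log2 fold change 10.21) and the oestrogen receptor Esr1 (2.7) also rose in luminal cells, as did Stat5a (1.95), which relays prolactin. Other progesterone or oestrogen responsive signals followed: Wnt4 (6.12), Calca (10.98) and Areg (5.0), the gene of amphiregulin. In luminal replicate 2, Prlr (914 CPM), Stat5a (75.6) and Calca (18.2) were at their luminal lowest as well, whereas Areg was at its highest (162). Wnt4 and Esr1 were lowest in other luminal libraries. The cause of these differences between libraries was not tested. Genes known to act after RANK in the alveolar lineage were luminal too, although RANK itself was higher in basal cells. They were Elf5 (9.02), Ccnd1 (4.33), Id2 (0.90) and the Wnt agonist Rspo1 (1.84). Kit (7.27), a surface marker by which the study sorted luminal progenitors, was luminal as well. Prlr, Calca and Elf5 were close to 0 in basal cells, so their fold changes depend on the few counts there: without basal replicate 2 that of Calca was 13.08, without basal replicate 1 that of Elf5 was 9.97, and without basal replicate 4 that of Wnt4 was 7.81. Lgr4, an R-spondin receptor that has also been described as a receptor of RANKL, averaged 33.2 ± 4.43 CPM in luminal and 426 ± 20 in basal cells, and its 5 basal libraries, at 404, 445, 450, 417 and 416 CPM, all exceeded the luminal ones (log2 fold change -3.68, SE 0.14, adjusted p = 1.16e-10). Its direction was that of RANK.

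**Figure D2:**
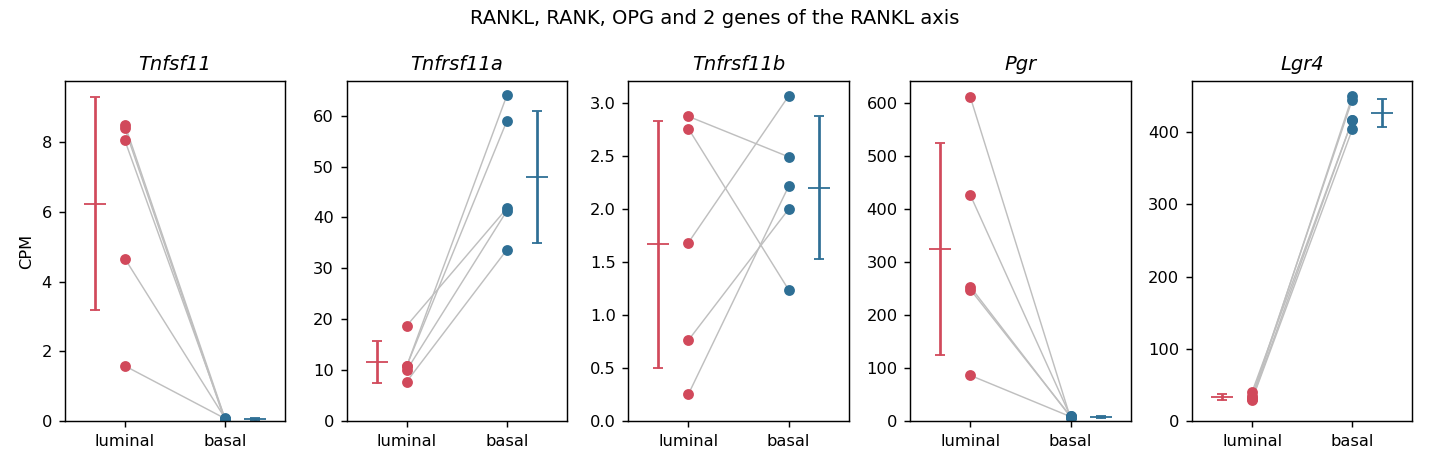
CPM of each library (points; grey lines join libraries of the same number, read as the same animal) with the mean ± SD of 5 libraries beside them, each gene on its own linear axis. RANKL and Pgr fall to near the baseline from luminal to basal in all 5 pairs, RANK and Lgr4 climb in all 5, and OPG crosses over at low level.

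Of the other ligands, APRIL was luminal. Tnfsf13 (chr11:69682577-69685554, minus strand), a ligand that sustains plasma cells, was at 10.1, 22.4, 12.1, 14.6 and 15.5 CPM in luminal libraries 1 to 5 and at 1.81, 2.73, 1.55, 1.06 and 2.64 in basal ones, without overlap (log2 fold change 2.93, SE 0.31, adjusted p = 1.27e-06). Its reads can be shared with its neighbour Tnfsf12 through the readthrough gene Tnfsfm13 and with the antisense gene Tnfsf13os, since the strand setting of the counts is not given. Tnfsf12 (TWEAK) itself averaged 18.5 ± 3.74 CPM in luminal and 15.7 ± 2.92 in basal cells and did not pass the test (log2 fold change 0.24, adjusted p = 0.278). Both receptors of APRIL, Tnfrsf13b and Tnfrsf17, had at most 4 counts in any library.

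The one ligand tested that was higher in basal cells was 4-1BBL. Tnfsf9 (chr17:57105287-57107758, plus strand), a costimulatory ligand, was at 10.2, 6.95, 8.4, 5.34 and 6.6 CPM in luminal libraries 1 to 5 and at 12, 15.4, 13, 21.5 and 13.4 in basal ones, which did not overlap. Tnfsf9 had a log2 fold change of -1.0 (SE 0.23, adjusted p = 0.00137). Its receptor Tnfrsf9 (4-1BB), at 0.72 ± 0.386 CPM in luminal and 2.34 ± 0.571 in basal cells, was higher on the same side (log2 fold change -1.69, SE 0.46, adjusted p = 0.00482). Tnfsf10 and Eda were present in both cell types and did not pass the test. Tnfsf10, the gene of the death ligand TRAIL, ran from 9.85 to 40.8 CPM in luminal and from 19.2 to 42.9 in basal libraries (log2 fold change -0.42, SE 0.34, adjusted p = 0.298). Without luminal replicate 1, its highest luminal library, the log2 fold change was -0.77 with an adjusted p of 0.0334.

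A further 9 ligands were too low to test. Cd40lg and Tnfsf14 had no count in any library, which allows up to 0.232 CPM (3 counts). Cd70 (chr17:57145997-57149777), the ligand of CD27, had no count in 5 luminal libraries and 9 to 27 counts in each basal library. Against 3 counts per luminal library, its mean in basal cells was at least 5.14-fold higher, but it did not pass the filter on low counts. With no filter its adjusted p was 1.26e-04. Tnfsf18 (GITRL) had 0 to 5 counts in luminal and 2 to 106 in basal libraries, with its highest value in basal replicate 4 (6.63 CPM) and its next highest in replicate 1 (2.56). Fasl, at 0 in luminal libraries and with 13 of its 18 basal counts in basal replicate 4, and Tnfsf18 had adjusted p values of 0.0222 and 0.00183 with no filter. The remaining 4, Tnfsf4, Tnfsf8, Tnfsf13b (BAFF) and Tnfsf15, had at most 17 counts in any library.

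Of the receptors best known for cell death, Fas, Tnfrsf10b and Tnfrsf1a were higher in basal cells, and Tnfrsf21 and Tnfrsf25 in luminal cells. Fas (chr19:34290647-34327775, plus strand), the receptor of Fas ligand, was at 6.25, 12.5, 11.5, 13.7 and 6.66 CPM in luminal libraries 1 to 5 and at 70, 43.7, 36.3, 50.5 and 48.9 in basal ones. The lowest basal library was above the highest luminal one (log2 fold change -2.3, SE 0.25, adjusted p = 1.73e-06). Tnfrsf10b (chr14:69767472-69784411, plus strand), the TRAIL receptor of the mouse, was at 21.7, 14, 16.6, 17.5 and 14.9 and 34.9, 32, 30.2, 31.1 and 32.7 CPM in the same order. Its groups did not overlap either, and the basal libraries lay close together (log2 fold change -0.93, SE 0.15, adjusted p = 8.23e-05). Tnfrsf1a (chr6:125349723-125362483, plus strand) encodes TNFR1, the death domain receptor of soluble TNF. It was at 207, 148, 161, 165 and 217 CPM in luminal and 265, 257, 268, 269 and 264 CPM in basal libraries, a small difference but one without overlap (log2 fold change -0.56, SE 0.14, adjusted p = 0.00243). The spread among basal libraries was narrow, with an SD of 4.67 CPM against 30.5 among luminal ones.

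Tnfrsf21 (chr17:43016555-43089188, plus strand), the gene of death receptor 6 (DR6), had more CPM in luminal cells than any other member. It was at 664, 529, 617, 374 and 565 CPM in luminal libraries 1 to 5 and at 85.2, 95.4, 78.8, 87 and 114 in basal ones. All luminal libraries were above all basal ones, and luminal replicate 4 was the lowest of its group (log2 fold change 2.58, SE 0.18, adjusted p = 1.95e-08). Tnfrsf25 (DR3), another death domain receptor, was low, at 4.2 ± 3.55 CPM in luminal and 1.21 ± 0.539 in basal cells. Its groups overlapped, with 10.2 CPM in luminal replicate 2, yet it passed the test (log2 fold change 1.79, SE 0.54, adjusted p = 0.00987). Without that library the log2 fold change was 1.18 with an adjusted p of 0.0472. Per kilobase of mean transcript length, Tnfrsf1a and Tnfrsf21 led the receptors in luminal cells at 213 and 208 CPM per kb, within their spread over libraries, whereas with the longest transcript Tnfrsf21 led at 152, ahead of Tnfrsf12a at 84.6 and Tnfrsf1a at 83.3. In basal cells Tnfrsf1a led under both lengths, at 313 and 123 CPM per kb. Tnfrsf12a followed at 86.6 and 67.9.

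TNFR2 went the way of its ligands. Tnfrsf1b (chr4:145212368-145246870, minus strand), the receptor of membrane TNF and of lymphotoxin, which lacks a death domain, was at 54.9, 30.9, 44, 29.1 and 41.6 CPM in luminal libraries 1 to 5 and at 3.55, 3.62, 7.58, 6.56 and 4.44 in basal ones. No library of either group reached the other (log2 fold change 2.96, SE 0.26, adjusted p = 1.95e-07). The TNF receptors therefore lay on opposite sides: Tnfrsf1b was 7.80-fold higher in luminal and Tnfrsf1a 1.47-fold higher in basal cells. The lymphotoxin beta receptor Ltbr, whose ligand Ltb was luminal, had means of 75.1 ± 10.9 and 74.1 ± 11.2 CPM in luminal and basal cells (log2 fold change 0.02, SE 0.14, adjusted p = 0.921). The sign of that value changed with the scaling.

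Tnfrsf23 (chr7:143665807-143686436), a decoy receptor of TRAIL found in the mouse, was at 58.6, 52.7, 45.3, 20.7 and 14.3 CPM in luminal and 8.79, 10.1, 19, 24.3 and 8.15 CPM in basal libraries. Here the groups overlapped: luminal replicates 4 and 5 fell within the basal range, which ran from 8.15 to 24.3 (log2 fold change 1.45, SE 0.40, adjusted p = 0.0055). Its close relatives Tnfrsf22 (4.52 ± 1.71 and 5.54 ± 2.79 CPM, adjusted p = 0.526) and Tnfrsf26 (at most 6 counts) lie with it in 78752 bases of chromosome 7. Reads may be split or shared among these similar copies, so their values are uncertain.

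The ectodysplasin system had a ligand whose libraries overlapped and receptors on opposite sides. Eda (chrX:99975606-100400760, plus strand) averaged 8.33 ± 2.89 CPM in luminal and 8.0 ± 1.02 in basal cells (log2 fold change 0.05, SE 0.25, adjusted p = 0.859), and the sign changed between settings. One splice form of its protein binds Edar and the other binds Eda2r, and the counts do not separate them. Edar (chr10:58600780-58675696, minus strand) was at 0.188, 0.421, 0.368, 1.37 and 0.254 CPM in luminal libraries 1 to 5 and at 10.9, 8.94, 7.04, 7.63 and 7.13 in basal ones. The groups were far apart, although luminal replicate 4 exceeded its group (log2 fold change -4.03, SE 0.45, adjusted p = 2.61e-06). Its adaptor Edaradd, which links the death domain of Edar to TRAF proteins, was at 0.268 ± 0.355 CPM in luminal and 7.04 ± 1.06 in basal cells (log2 fold change -4.78, SE 0.67, adjusted p = 2.26e-05). Without luminal replicate 4 the log2 fold changes of Edar and Edaradd were -4.71 and -5.78. Eda2r (chrX:97333837-97377234, minus strand) was luminal, at 10.7, 7.11, 11, 4.05 and 7.68 CPM against 0.624, 1.5, 1.55, 1.25 and 0.779 in basal libraries. Again there was no overlap, and luminal replicate 4 was here the lowest (log2 fold change 2.83, SE 0.36, adjusted p = 9.48e-06).

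Of the members that passed the filter, Ngfr, which did so through basal cells only, had the largest log2 fold change toward basal cells. That rank depended on the filter: with none, the log2 fold change of Ngfr was -6.83 and that of Cd70 -6.98. This gene (chr11:95568818-95587698, minus strand) encodes p75, the low-affinity receptor of all neurotrophins, and it was at 0, 0, 0.0613, 0.534 and 0 CPM in luminal libraries 1 to 5 and at 9.98, 15.5, 11.6, 10.6 and 12.7 in basal ones. Luminal libraries held 0 to 7 counts and basal libraries 150 to 227 (log2 fold change -6.77, SE 0.64, adjusted p = 4.35e-07). Luminal replicate 4 gave 7 luminal counts, and without it the log2 fold change was -9.05. Schwann cells also carry p75. Their 3 markers summed to 2.75 to 8.78 CPM in luminal libraries, highest in replicate 4, and to 2.70 to 4.80 in basal ones. Pericyte markers were higher in basal libraries, as given above. The part of Schwann cells and pericytes in the values of Ngfr was not tested. Of 6 other genes of neurotrophin signalling, a list drawn up with earlier results known, all were called (64.8% of all genes were), 5 higher in basal cells (83.3%, against 31.2%) and 1, the p75 coreceptor Sort1 (log2 fold change 6.15), in luminal cells. The ligands Bdnf (-2.0), Ntf3 (-6.89) and Ntf5 (-1.92) were basal, Ntf3 against 0 to 3 counts in luminal libraries (log2 fold change -7.56 without luminal replicate 4), as were the kinase receptors Ntrk2 (-4.45) and Ntrk3 (-6.53).

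**Figure D3:**
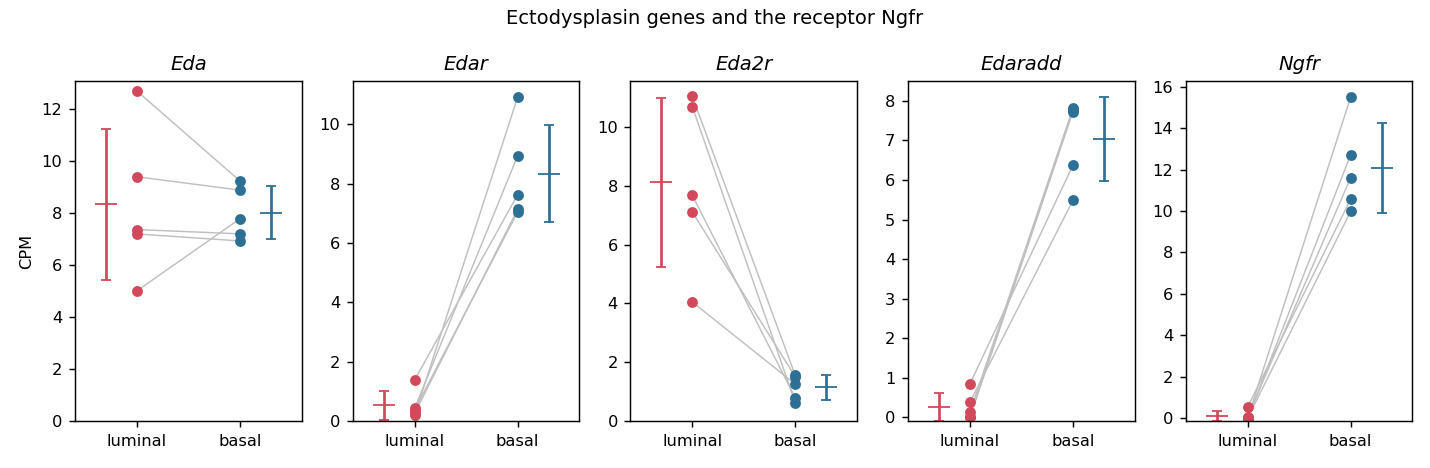
CPM of each library (points; grey lines join libraries of the same number) with the mean ± SD of 5 libraries beside them, each gene on its own linear axis. Eda overlaps between cell types, Edar, Edaradd and Ngfr lie near 0 in luminal and at 5.49 CPM or more in basal libraries, and Eda2r shows the reverse order.

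Among receptors known from lymphocytes, Tnfrsf18 was higher in basal cells. Tnfrsf18 (GITR, chr4:156026322-156028894, plus strand) was at 1.38, 5.43, 1.35, 3.44 and 1.08 CPM in luminal and 8.67, 23.8, 30.3, 27.5 and 9.71 CPM in basal libraries 1 to 5. The groups did not overlap, but basal libraries fell into a lower pair (replicates 1 and 5) and a higher group of 3 (log2 fold change -2.97, SE 0.49, adjusted p = 1.04e-04). Its locus overlaps Gm16008, and T and NK cell markers summed to at most 0.0599 CPM in the same libraries. Tnfrsf14 (HVEM) averaged 5.06 ± 1.56 CPM in luminal and 3.07 ± 0.891 in basal cells (log2 fold change 0.72, SE 0.31, adjusted p = 0.0566), and it passed the threshold under some settings. Cd27 and Tnfrsf4 (OX40) were low, with 0 to 31 and 0 to 36 counts per luminal library (0.923 ± 0.682 and 1.05 ± 0.70 CPM), and did not pass (adjusted p = 0.522 and 0.699). Tnfrsf12a (FN14), the receptor of TWEAK, was abundant in both cell types at 83.2 ± 19.7 and 66.8 ± 13.1 CPM (log2 fold change 0.32, SE 0.18, adjusted p = 0.145). It overlaps Hcfc1r1. The 7 receptors not tested were Cd40, Tnfrsf8, Tnfrsf13b, Tnfrsf13c, Tnfrsf17, Tnfrsf19 and Tnfrsf26. Among them only Tnfrsf13c (BAFF receptor) had an adjusted p under 0.05 with no filter (0.0148), at 0 counts in luminal and 0 to 7 in basal libraries.

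Ligand and receptor were then set side by side for 27 pairs known to bind. Both genes were tested in 13 pairs and both differed between cell types in 6. With 64.8% of all genes called, pairs with both genes called are common, and nothing is read from this number. In 3 of these both were higher in the same cells: Tnf and Tnfrsf1b, Lta and Tnfrsf1b in luminal cells, and Tnfsf9 and Tnfrsf9 in basal cells. In the other 3 the ligand was luminal and the receptor higher in basal cells: Tnf and Tnfrsf1a, Lta and Tnfrsf1a, and RANKL and RANK. The pairs share genes and are not independent of each other. Tnf, Lta and RANKL passed the filter only through luminal cells, as given above, so the luminal side of these ligands was conditional on the filter. The split into pairs on the same and on opposite sides is therefore a description.

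**Figure D4:**
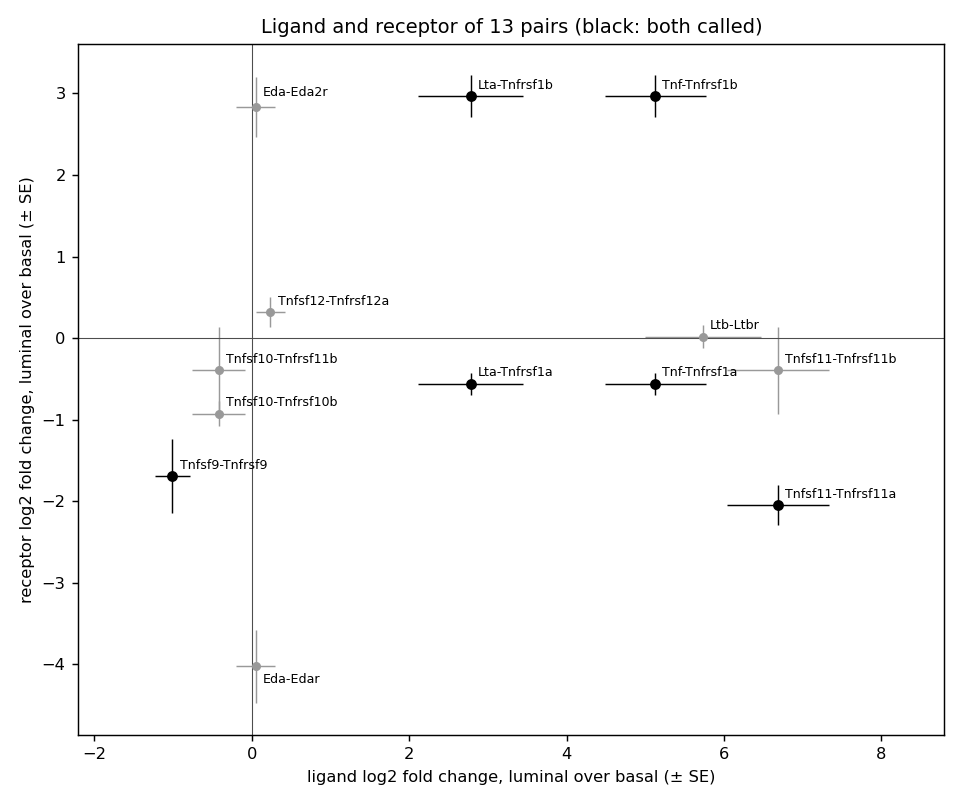
Each point is 1 ligand and receptor pair, with the ligand's log2 fold change (luminal over basal) on the horizontal and the receptor's on the vertical axis, each ± SE; black points are pairs with both genes called. Pairs of Tnf, Lta, Ltb and RANKL lie to the right, with the receptor above 0 for Tnfrsf1b, near 0 for Ltbr and at -2.05 for RANK.

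A list of 50 genes that act after the receptors or cut the ligands was tested in full. It too was drawn up with earlier results known, and its counts are given as a description. Of these, 30 differed, 9 higher in luminal (18.0%, against 33.6% of all genes) and 21 higher in basal cells (42.0%, against 31.2%), with a median log2 fold change of -0.23. The split depended on the scaling: with library totals alone 15 were luminal and 17 basal, and with upper-quartile factors 14 and 18. These settings raised the median log2 fold change of all genes by 0.19 and 0.12. Adaptors and death signalling genes were mixed, with 5 luminal and 6 basal of 22. Fadd, which brings caspase-8 to death receptors, was higher in luminal cells (13.7 ± 3.26 and 3.68 ± 1.04 CPM, log2 fold change 1.9, SE 0.25), as were Traf2 (1.1) and Traf1 (0.86), whereas Cflar, whose product blocks caspase-8 at the receptor, was higher in basal cells (63.2 ± 7.31 and 174 ± 22.8 CPM, log2 fold change -1.46, SE 0.14, adjusted p = 3.78e-07). Caspase-8 itself (Casp8, log2 fold change -0.13, adjusted p = 0.458) did not pass; it and Adam17 below were named after their values were seen.

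In the NF-kB arm 3 of 21 genes were luminal (14.3%, against 33.6% of all genes), 10 were basal (47.6%, against 31.2%) and 8 were not called. Here too the split moved with the scaling, to 6 luminal and 8 basal with library totals alone and to 5 and 8 with upper-quartile factors. The inhibitor gene Nfkbia was the largest luminal change (390 ± 142 and 155 ± 43.7 CPM, log2 fold change 1.33, SE 0.25, adjusted p = 2.98e-04), and luminal replicate 4, the library with the most Tnf, had the most Nfkbia as well (638 CPM). Basal cells had more of the kinase Chuk (-1.06), of Tab2 (-1.17), and of the ubiquitin editors Tnfaip3 (-1.12) and Otulin (-1.24), which restrain the pathway. Of the 7 genes for shedding and cleavage, 1 was luminal and 5 basal, or 2 and 3 with library totals alone. Adam10, a protease that releases several family members, was at 506 ± 41.1 CPM in luminal and 63.6 ± 12.8 in basal cells (log2 fold change 2.99, SE 0.16, adjusted p = 1.77e-09). Adam17, the main TNF convertase, averaged 54 ± 6.61 and 45.2 ± 4.99 CPM (adjusted p = 0.109), while its inhibitor Timp3 (-1.52) and the proteases Mmp14 (-1.3) and Furin (-1.12) were basal. The immediate early genes given above, among them Jun (-1.32) and Dusp1 (-2.07), were higher in basal cells, as were 10 of the 21 NF-kB genes, and their part in these values was not tested.

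**Figure D5:**
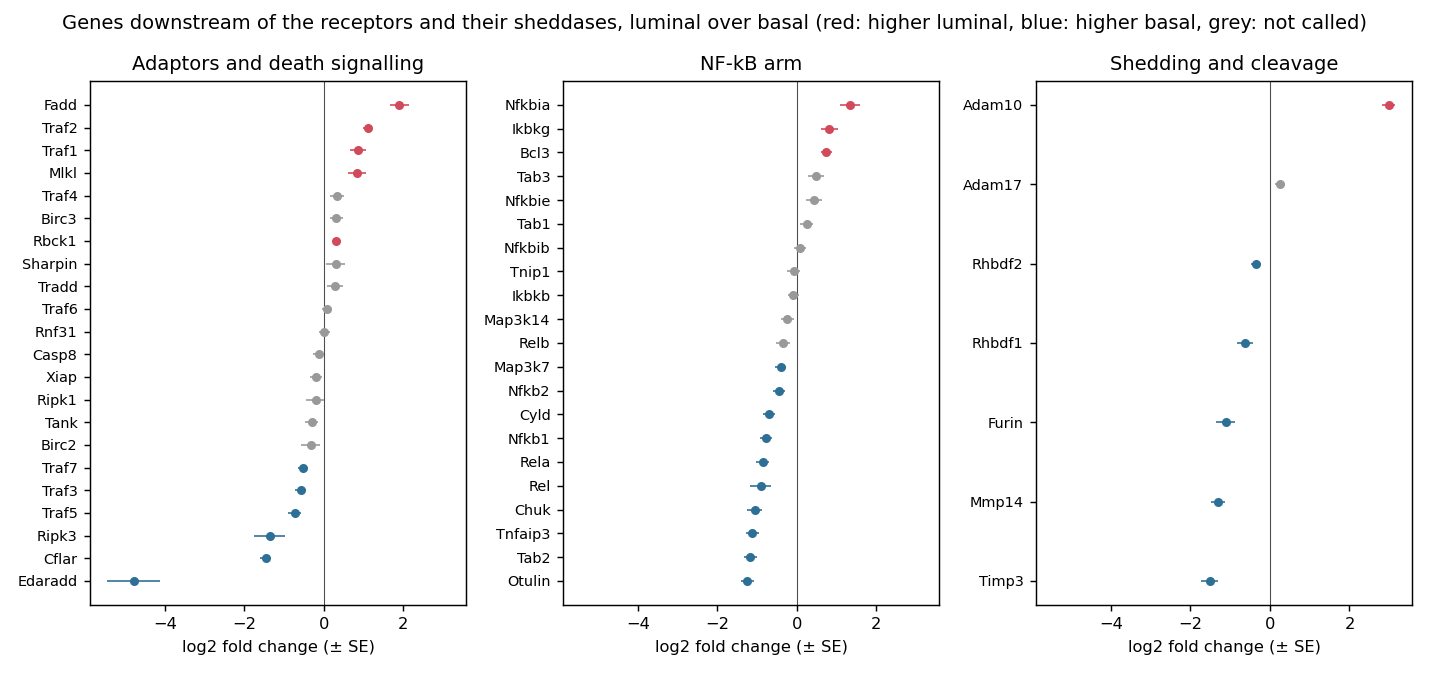
Log2 fold change ± SE (luminal over basal) of the 50 genes in 3 groups, red where higher in luminal cells, blue where higher in basal cells and grey where not called. Adam10 lies farthest to the right at 2.99 and Edaradd farthest to the left at -4.78, and 10 of the 21 NF-kB genes are blue.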

How the data were processed

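RNA from sorted luminal and basal cells was made into libraries with a poly(A) protocol and sequenced by the authors. Per the study's methods, adapters were removed with cutadapt and single-end reads were aligned to mm10 (the GRCm38 assembly) with bowtie2 at default settings. The submitters' processing notes list cutadapt 4.2 and Bowtie2 2.3.5.1, and the methods name an earlier bowtie2 version. The counting tool, its annotation and its strand setting are not given in the sources used here, so copies and overlapping genes are uncertain. The submitters' notes also list hg19. The replicate number that the study's methods state for RNA-seq is below the 5 per cell type analysed here. The authors deposited raw whole-number counts per gene, with no normalization. Of 24594 Entrez identifiers, 24570 matched a symbol in the RefSeq GRCm38.p6 table and 24 did not. No count row lacked an identifier, and no column belonged to a sample outside the labels.

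Groups were taken from the cell type label. The pairing rests on the number that opens each library description, which same-numbered luminal and basal libraries have in common and which was taken for the animal. Their deviations from the group means correlated by -0.13 to 0.26. The labels do not state that these numbers are animals, so p-values measure the spread between these samples, which may be technical. No library pair agreed within sampling noise.

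Genes were filtered with filterByExpr (minimum count 10, minimum total 15), which left 14609 genes, and library totals were scaled with TMM factors. Cell types were compared with edgeR 4.0.16 (quasi-likelihood F test, two-sided, R 4.3.3), with Benjamini-Hochberg adjustment over all genes tested and a threshold of 0.05. SE, the standard error, was computed as the absolute log2 change over the root of F. CPM uses TMM-scaled totals of the genes tested, and levels per kilobase use mean or longest GENCODE M21 transcripts. The script was tested on simulated counts. Alternatives were DESeq2 1.42.0, its size factors, upper-quartile factors, library totals only, limma 3.58.1 voom, no filter, at least 10 counts in every library, a replicate block and leaving out each library.

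The members follow a rule on gene names, but that family and the gene lists were picked with earlier results of these data known. Values in every library were given for Tnfsf11, Tnfrsf11a and Tnfrsf11b and for called members whose higher cell type averaged 5 CPM or more. From most other lists, up to 5 called genes of that level with the largest change were named. All genes of the RANKL and neurotrophin lists could be named. Casp8, Adam17, Ptprc, Lyz2 and the single fibroblast markers were named after their values were seen.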

Additional observations from a re-analysis of the deposited data

Results flagged for a closer look

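In each cell type, the library farthest from the other 4 was compared with the range of the group (Dixon's ratio), for the members and the other genes named. A library stood apart in 17 of 149 groups. Chance gives about 1 in 20 for normally spread values, a rate that does not hold for groups of few counts: Tnfsf18 and Tnfrsf17 had 5 and 4 counts in luminal replicate 2 and none in the other 4 luminal libraries. The number of groups is therefore not read against chance. In 10 of the 17 it was a replicate 4 library.

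Among the ligands, Tnf stood apart in both replicate 4 libraries, at 19.2 CPM in the luminal one (others 8.43 to 9.96) and 1.13 CPM in the basal one (others 0 to 0.18). Fasl was at 0.813 CPM in basal replicate 4, Tnfsf12 at 25.1 CPM in luminal replicate 1, Tnfsf18 at 0.263 CPM in luminal replicate 2 and Tnfsf4 at 0.374 CPM in basal replicate 1.

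Among the receptors, Edar was at 1.37 CPM and Ngfr at 0.534 CPM in luminal replicate 4. Basal markers summed to 43.1 CPM in that library and to more, 77.5 CPM, in luminal replicate 5, where Edar and Ngfr were at 0.254 and 0 CPM. The part of basal cells in these values was not tested. Tnfrsf19 stood apart in both replicate 4 libraries, at 0.534 CPM in the luminal and 2.19 CPM in the basal one. RANK (Tnfrsf11a) was at 18.7 CPM in luminal replicate 1 (others 7.71 to 10.8), and Tnfrsf17 at 0.211 CPM in luminal replicate 2.

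Of the other genes, Nfkbia was at 638 CPM in luminal replicate 4 (others 291 to 378), and Wnt4 at 7.81 CPM and Tab2 at 182 CPM in basal replicate 4. Areg was at 162 CPM and Dusp1 at 135 CPM in luminal replicate 2.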

How the results depend on the processing

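Of 511 values of the 29 members tested over all alternatives, 489 held both direction and call, none of the 19 members called lost its call or changed sign, 8 values of members not called passed the threshold and 14 reversed. Leaving out 1 library at a time gave 10 to 11 members higher in luminal and 9 to 11 in basal cells, and 8 to 11 and 21 to 22 downstream genes. With a replicate block, 10 and 9 members and 10 and 22 downstream genes were called, and no member's call changed. A minimum of 10 counts in every library left 18 members, 6 called higher in luminal cells and 6 in basal ones, since fewer genes were tested. Downstream genes higher in luminal cells numbered 14 with upper-quartile factors and 15 with library totals, against 9, as these scalings raised the luminal side. Apart from libraries left out, whose effects stand beside each gene, the fold changes that kept their call but moved by over 1.5 times were those of Tnf (5.92), RANKL (6.01), Ngfr (-7.47), Edaradd (-5.69), Wnt4 (7.16) and Calca (10.30) with limma voom, and of Wnt4 (6.81) with the block. Rhbdf1 lost its call with library totals (adjusted p = 0.0958). The values that reversed were all of members not called: Eda with no filter (-0.0090), limma voom (-0.033) and over libraries left out (-0.15 to 0.21), Ltbr with DESeq2 size factors (-0.015), no filter (-0.044), DESeq2 (-0.015) and over libraries left out (-0.048 to 0.11), and with limma voom Cd27 (-0.022) and Tnfrsf4 (-0.43). The cause was not tested. Tnfrsf14 passed with upper-quartile factors (adjusted p = 0.0291), library totals (0.0208), the stricter filter (0.0385) and without luminal replicate 3 or 5, its range being 0.0208 to 0.128. Tnfrsf12a passed with library totals (0.0252) and without luminal replicate 1 (0.0325). With no filter 13 members were higher in basal cells, adding Cd70, Tnfsf18, Fasl and Tnfrsf13c. Depth limits what can be said of the 16 members not tested: their highest libraries ran from 0 to 6.63 CPM (Tnfsf18), against the 0.158 to 0.232 CPM that 3 counts give, and Cd70 was above this in all 5 basal libraries, at 0.599 to 1.68 CPM.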
